A study of Mus musculus with 2 samples.

Results

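The 9 genes described here make, move and break down GABA, the main inhibitory transmitter of the cerebral cortex, or build the GABA-B receptor: Gad1, Gad2, Slc32a1, Slc6a11, Abat, Gabbr1, Gabbr2, Kctd12 and Kctd16. They were taken as a list of names and found by gene symbol, which matched all 9 among the 55536 annotated genes of the deposited tables. Levels were measured by total RNA-seq of left cerebral cortex from female B6CASTF1/J mice, the first-generation cross of C57BL/6J and CAST/EiJ, at 18 to 20 months of age and with no treatment given in the labels. The input was 300 ng of RNA per library, to which spike-in RNAs were added. The labels give 1 group of 2 libraries, biological replicates 2 and 1, whose biosamples differ but share 1 donor entry. Whether they came from separate animals is therefore not clear, and the spread between them may be technical. With 1 group there is no condition to compare and no p-value, and no gene was sought for likeness of pattern to the 9.

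GABA is made from glutamate by a pair of glutamate decarboxylases, encoded by Gad1 and Gad2, and is loaded into synaptic vesicles by the transporter encoded by Slc32a1. After release it is taken up by plasma membrane transporters, among them the Slc6a11 product found mainly on astrocytes, and is broken down in mitochondria by the transaminase encoded by Abat. The GABA-B receptor is a G-protein-coupled heterodimer in which the GABBR1 subunit binds GABA and the GABBR2 subunit couples to the G protein, while KCTD12 and KCTD16 bind the GABBR2 tail as auxiliary subunits. In the cortex the synthesis genes are markers of interneurons, whereas the receptor is found on most neurons and on glia.

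The tables held 24899781 expected counts for replicate 2 and 32504959 for replicate 1. Levels are in TPM, reads scaled by transcript length and library size, so levels of different genes can be set against each other. The label of cortex was checked against markers. Camk2a (1148 ± 55.8 TPM) and Slc17a7 (552 ± 7.70 TPM) of excitatory cortical neurons were high, and Fezf2 of deep layers (11.8 ± 0.813 TPM) was the lowest of that list (SD, n = 2). Of 5 markers of olfactory bulb and cerebellum 2 were detected, Calb2 (7.62 ± 0.955 TPM), also made by cortical interneurons, and Cbln1 (3.67 ± 1.02 TPM). The other 3 had at most 2 counts in a library, and Gabra6, which marks granule cells, drew 0 reads in either, which allows up to 3 counts in each. Striatal markers were present, from Drd2 (5.18 ± 0.368 TPM) to Ppp1r1b (90.4 ± 8.12 TPM), and the second of these is also made in cortex. In bulk tissue fewer cells of a type and less RNA per cell cannot be told apart.

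The sequences that set the main transcript forms apart are given first, because the level of a gene was in several cases spread over forms with different starts and ends. Gabbr1 (chr17:37045966-37075067, plus strand, mm10) has an upstream start, used by the full-length 960-codon form Gabbr1-201, and an internal start, used by the 844-codon form Gabbr1-203. The longer protein, known as the 1a form, carries a pair of sushi domains that the internal-start 1b form lacks. A further form from the upstream start, Gabbr1-209, runs on past an exon end into the intron, meets a stop codon there and has 229 codons. The coding sequences at these points differ as follows, with start and stop codons in capitals (GENCODE M21 transcripts, GRCm38, plus strand; chr17:37046695-37046776, chr17:37050854-37050998 and chr17:37048607-37048824 in this order).
Gabbr1-201 first coding exon: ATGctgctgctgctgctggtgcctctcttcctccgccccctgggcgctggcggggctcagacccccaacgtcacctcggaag
Gabbr1-203 own coding stretch: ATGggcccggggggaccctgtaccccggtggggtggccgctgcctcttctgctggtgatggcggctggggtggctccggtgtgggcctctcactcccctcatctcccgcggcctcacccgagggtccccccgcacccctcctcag
Gabbr1-209 coding tail: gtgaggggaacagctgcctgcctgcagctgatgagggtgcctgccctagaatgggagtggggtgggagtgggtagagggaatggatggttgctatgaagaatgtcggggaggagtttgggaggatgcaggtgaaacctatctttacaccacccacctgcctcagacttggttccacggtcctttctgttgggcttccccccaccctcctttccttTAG

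Gad1 (chr2:70553072-70602014, plus strand) has a full-length form, Gad1-201, of 17 exons and 593 codons. An extra exon, held by Gad1-203, Gad1-205 and Gad1-207, brings an early stop codon and leaves 223 codons. This type of short form is known from embryonic brain. The exon is printed as in Gad1-203 and ends later in Gad1-205 and Gad1-207. Gad1-206 is annotated as non-coding and begins at an alternative exon within the gene, from which it joins the exons of Gad1-201. Both stretches are shown because the transcript tables differ in how many reads they give to these forms (GENCODE M21, GRCm38, plus strand; chr2:70584420-70584499 and chr2:70566377-70566453; the stop codon is in capitals).
Gad1 extra exon: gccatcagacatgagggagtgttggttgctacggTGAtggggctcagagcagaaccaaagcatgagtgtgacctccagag
Gad1-206 first exon: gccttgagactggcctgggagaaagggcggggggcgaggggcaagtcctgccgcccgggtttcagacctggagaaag

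Promoter windows of 300 bases, 250 before and 50 after the annotated start, were found for 7 of the 9 genes in RefSeq (GRCm38.p6). Those of Gad1 and Gabbr1, the genes with several starts, are printed with the GC box GGGCGG (either strand) in capitals. They cover chr2:70561879-70562178 and chr17:37045716-37046015, both on the plus strand, and the Gabbr1 window belongs to the upstream start.
Gad1 promoter: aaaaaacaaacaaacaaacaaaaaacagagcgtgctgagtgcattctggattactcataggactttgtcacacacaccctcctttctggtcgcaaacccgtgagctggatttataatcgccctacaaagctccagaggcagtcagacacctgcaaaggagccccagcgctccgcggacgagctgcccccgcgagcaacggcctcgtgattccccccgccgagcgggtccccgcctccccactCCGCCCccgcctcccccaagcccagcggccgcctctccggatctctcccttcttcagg
Gabbr1 promoter: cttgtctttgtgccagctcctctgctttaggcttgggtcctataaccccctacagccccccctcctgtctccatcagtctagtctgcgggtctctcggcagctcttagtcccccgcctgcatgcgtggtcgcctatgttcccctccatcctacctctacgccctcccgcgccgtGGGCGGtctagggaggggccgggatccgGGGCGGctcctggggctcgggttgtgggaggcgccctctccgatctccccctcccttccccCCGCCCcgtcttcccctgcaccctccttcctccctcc

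GC content was above the median of all 32851 promoters (52.7%) in each of the 7 windows, from 60.0% in Gad1 and 61.3% in Gad2 to 78.0% in Kctd12 and 80.3% in Gabbr2. The GC box was present in 5 of the 7 windows, those of Gad1, Slc6a11, Gabbr1, Gabbr2 and Kctd12, and in 35.7% of all promoters. The letters TATAAA, searched on both strands, were found in 1 window, that of Gad1, and in 13.6% of all promoters. TGACG, the core letters of the cyclic AMP response element, was found in 2 windows (Gad2 and Kctd12) and in 20.8% of all. The E-box CANNTG was found in 5 windows and in 72.3% of all. Matches of different motifs overlapped in 0 of the 7 windows. These matches describe the windows and are not evidence of binding.

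All 9 genes were detected, meaning 1 TPM or more in both libraries, against 26.7% of all annotated genes and 58.3% of the 22015 nuclear protein-coding genes. Their mean levels spanned 14.7-fold, from 20.5 TPM for Kctd12 to 302 TPM for Gabbr1. Behind them stood 1730 to 15449 counts per gene in replicate 2 and 2078 to 20567 in replicate 1. All 9 lay above the median of the 12844 detected coding genes (15.8 TPM, quartiles 6.43 and 35.4). The order by mean was Gabbr1, Gad1, Gabbr2, Abat, Kctd16, Gad2, Slc32a1, Slc6a11 and Kctd12, and the alignment-free tables gave the same order, from 434 to 31.8 TPM. Within it, Abat and Kctd16, Kctd16 and Gad2, and Gad2 and Slc32a1 were neighbours whose libraries overlapped and whose means were closer than the sum of their SDs. The other 5 neighbouring pairs were apart by both measures.

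**Figure D1:**
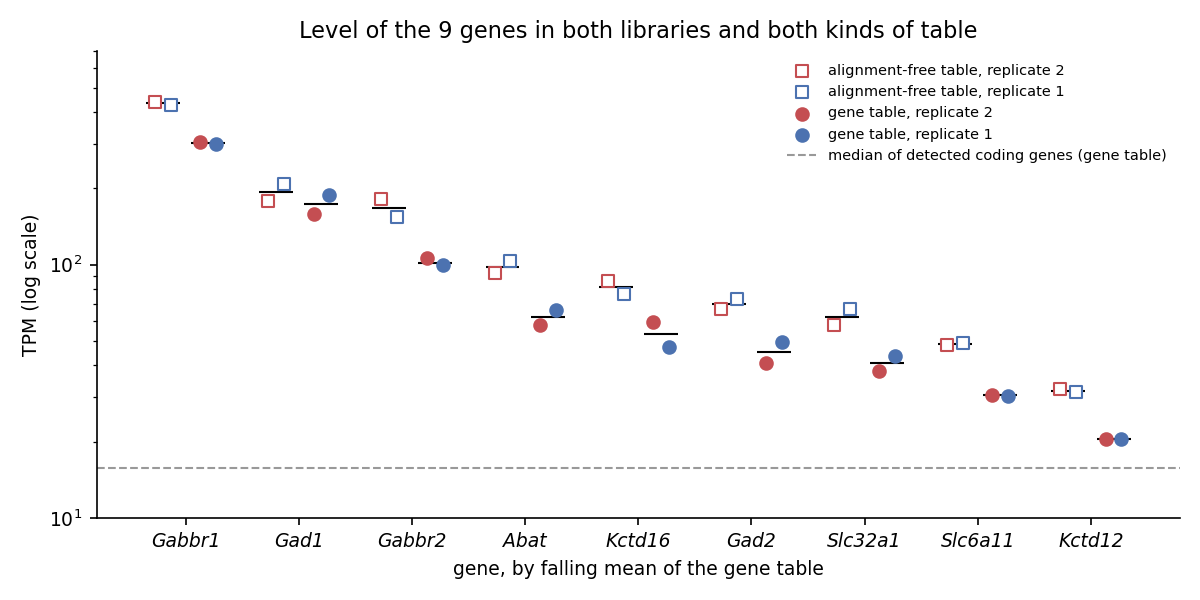
Level of each gene in TPM (log axis) in replicate 2 (red) and replicate 1 (blue), from the alignment-free table (open squares) and the gene table (filled circles), with the mean of each pair as a black line. All 9 lie above the median of detected coding genes (dashed, 15.8 TPM), and the order from Gabbr1 to Kctd12 is the same in both kinds of table.

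Among the enzymes of synthesis, Gad1 was the higher by far. It had 159 TPM in replicate 2, against 189 in replicate 1 (174 ± 20.7; SD, n = 2), and ranked 372 of 12844 detected coding genes. Gad2 (chr2:22622205-22693874, plus strand), which encodes the decarboxylase bound to synaptic vesicles, had 40.8 TPM in replicate 2, against 49.4 in replicate 1 (45.1 ± 6.06). Both genes were lower in replicate 2, so their ratio moved little: Gad1 over Gad2 was 3.90 in replicate 2 and 3.82 in replicate 1. In the alignment-free tables the ratio was 2.67 and 2.87 in the same libraries. Gad1 was above Gad2 in both libraries of both kinds of table, and the size of the gap depended on the table. The coding sequences of the pair were 68.0% identical, with no shared stretch longer than 17 bases. Gad1 was the only one of the 9 with fractional expected counts, the mark of reads shared out between genes. Such counts were found for 15.3% of detected nuclear protein-coding genes.

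Slc32a1 (chr2:158610767-158615748, plus strand), the vesicular transporter gene, had 38.0 TPM in replicate 2, against 43.7 in replicate 1 (40.8 ± 3.99). Its level was thus close to that of Gad2, and the libraries of the pair overlapped. Within each library Slc32a1 was the lower, in both kinds of table. Slc32a1 over Gad2, a ratio added after the values were seen, was 0.907 ± 0.0335 in the gene tables and 0.890 ± 0.0356 in the alignment-free tables. Against Gad1 the ratio was 0.235 ± 0.00508, and 0.322 ± 0.00344 in the alignment-free tables (SD, n = 2).

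Slc6a11 (chr6:114131241-114249952, plus strand), the astrocytic GABA transporter, had 30.7 TPM in replicate 2, against 30.4 in replicate 1 (30.6 ± 0.163). Its libraries were closer together than those of Gad1, Gad2, Slc32a1 and Abat. Abat (chr16:8513429-8621568, plus strand), the gene of the degrading transaminase, had 58.0 TPM in replicate 2, against 66.2 in replicate 1 (62.1 ± 5.85). It was above Gad2 in both libraries, at a ratio of 1.38 ± 0.0558, also added after the values were seen, and below Gad1, at 0.358 ± 0.00898.

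Of the receptor genes, Gabbr1 was the most abundant of all 9. It had 305 TPM in replicate 2, against 299 in replicate 1 (302 ± 4.07) and ranked 137 among the detected coding genes. Gabbr2 (chr4:46662305-46991873, minus strand) had 106 TPM in replicate 2, against 99.3 in replicate 1 (102 ± 4.41). Although the subunits pair in the receptor, the RNA of the GABA-binding subunit was 2.95 ± 0.0875 times that of the G-protein-coupling subunit, with 2.89 in replicate 2 and 3.01 in replicate 1. Counting only the forms that code for a complete GABBR1, Gabbr1-201 and Gabbr1-203, against Gabbr2-201 gave 1.91 ± 0.0565, and 1.79 ± 0.0575 in the alignment-free tables (a comparison added after the values were seen). The excess of Gabbr1 over Gabbr2 was therefore smaller, though still present, when short Gabbr1 forms were left out.

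The auxiliary subunit genes were lower. Kctd16 (chr18:40256962-40531630, plus strand) had 59.5 TPM in replicate 2, against 47.3 in replicate 1 (53.4 ± 8.63). Kctd12 (chr14:102976581-102982637, minus strand), whose product speeds desensitisation of the receptor response, had 20.5 TPM in both libraries (SD 0.00707). Kctd12 over Kctd16 was 0.345 in replicate 2 and 0.373 in the alignment-free table of that library, against 0.434 and 0.411 in replicate 1. Kctd16 was thus the higher of the pair throughout, and the size of its lead varied with Kctd16 itself.

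Transcript forms were compared in both kinds of transcript table, one made from alignments and one from reads without alignment. For 9 of the 9 genes the leading transcript did not depend on library or kind of table. Slc32a1-201 is the only annotated transcript of its gene, and Kctd12-202 took all of the TPM of its gene. In the alignment-based tables the leading form held 91.2% ± 1.20 of Gad2, 99.1% ± 0.551 of Slc6a11, 94.7% ± 2.01 of Abat and 98.5% ± 0.903 of Gabbr2 (SD, n = 2). Kctd16 was more mixed: Kctd16-206, with the complete 427 codons, held 59.6% ± 3.25, and the short single-exon form Kctd16-202 of 140 codons held 26.8% ± 1.61. Together with another form of 427 codons, Kctd16-206 held 70.6% ± 0.549. These are shares of length-scaled TPM. Kctd16-202 had 161 of the gene's 1887 counts in replicate 2 and 186 of 2078 in replicate 1.

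Gabbr1 RNA came from both starts. The internal-start form Gabbr1-203 had 165 TPM in replicate 2, against 166 in replicate 1, or 54.7% ± 0.931 of the gene. Its upstream-start counterpart Gabbr1-201, whose opening exon is printed above, had 28.2 TPM in replicate 2, against 26.2 in replicate 1. The 1b form was thus 6.08 ± 0.335 times the 1a form, and 6.37 ± 0.469 times in the alignment-free tables, so this ratio changed little with the kind of table. The short form Gabbr1-209, which holds the sushi region and ends in the tail printed above, had 59.2 TPM in replicate 2, against 65.2 in replicate 1. It was 2.29 ± 0.274 times as abundant as Gabbr1-201 there, and 3.22 ± 0.203 times in the alignment-free tables. The forms from the upstream start made up 35.7% ± 0.535 of the gene's TPM (108 TPM in each library). By TPM most of this was therefore assigned to short forms and not to the complete 1a form. By alignment-based counts, not scaled by length, Gabbr1-201 held 2449 of 4276 in replicate 2 and 3043 of 5587 in replicate 1. By alignment-free counts it held 2504 of 5117 and 3036 of 6373, so counts do not show a clear majority of short forms. The tail of Gabbr1-209 lies within an intron of Gabbr1-201, so spliced Gabbr1-201 does not hold it. Unspliced RNA from the upstream start would hold it, and the amount of such RNA was not measured. Counts behind these values were 10947 and 14708 for Gabbr1-203, 2449 and 3043 for Gabbr1-201, and 1494 and 2199 for Gabbr1-209, in replicates 2 and 1 in this order.

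**Figure D2:**
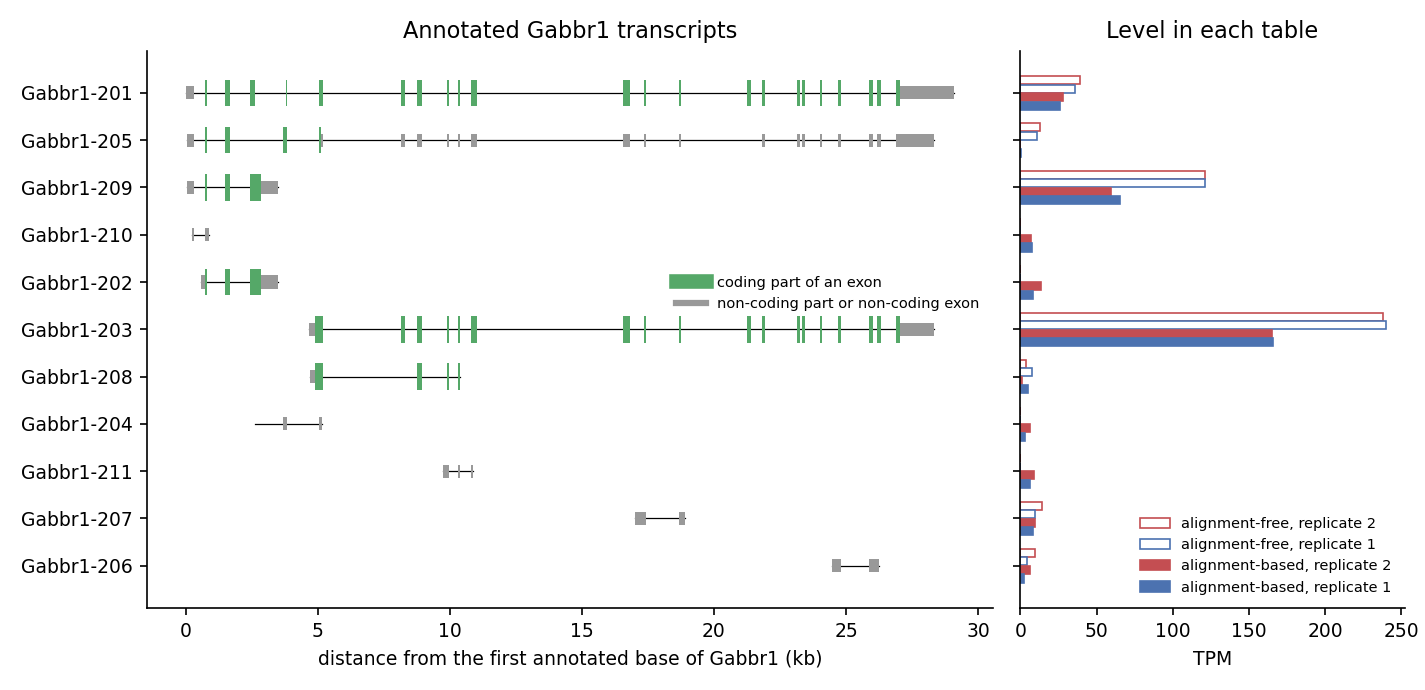
Left, exons of the 11 annotated Gabbr1 transcripts by distance from the start of the gene (kb), with coding parts in green and non-coding parts in grey. Right, TPM of each in replicate 2 (red) and replicate 1 (blue) of the alignment-free (open bars) and alignment-based tables (filled bars); Gabbr1-203 from the internal start leads in all 4, and the short upstream form Gabbr1-209 is above Gabbr1-201 in each.

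Gad1 forms depended on the kind of table. In the alignment-free tables Gad1-201 had 162 TPM in replicate 2, against 194 in replicate 1, or 91.9% ± 1.26 of the gene. In the alignment-based tables it had 63.6 TPM and 80.3 TPM in the same libraries, or 41.3% ± 1.87. The rest there went mainly to Gad1-206, whose exon is printed above, with 46.2 TPM in replicate 2, against 52.1 in replicate 1 (28.3% ± 1.01). A further 25.2% ± 0.543 went to Gad1-204, a 398-base fragment with an upstream start and an incomplete end, which was listed at 0 in both alignment-free tables. TPM is scaled by length, and this share came from few reads. They were 205 of the gene's 6202 counts in replicate 2 and 315 of 9910 in replicate 1. Gad1-206 received 2259 and 3401 counts in replicates 2 and 1 from alignments, and less than 1 count in each library without them. Gad1-201 and Gad1-206 together held 5752 and 9297 counts in the alignment-based tables, near the 6349 and 10104 that the alignment-free tables gave to the pair. The count of the gene thus differed little, by 1.06-fold, and its division between forms differed strongly.

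The forms with the extra exon were scarce in all 4 tables. Together they had 2.24 TPM in replicate 2, against 1.85 in replicate 1, or 1.19% ± 0.301 of the gene, from 61 and 67 counts. The alignment-free share was 1.93% ± 0.966. The highest share in any library was 2.62%, in the alignment-free table of replicate 2. In the alignment-based tables all of these reads went to Gad1-205, in which the exon runs on into the intron and ends the transcript. Unspliced RNA would hold that stretch too, and its amount was not measured.

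**Figure D3:**
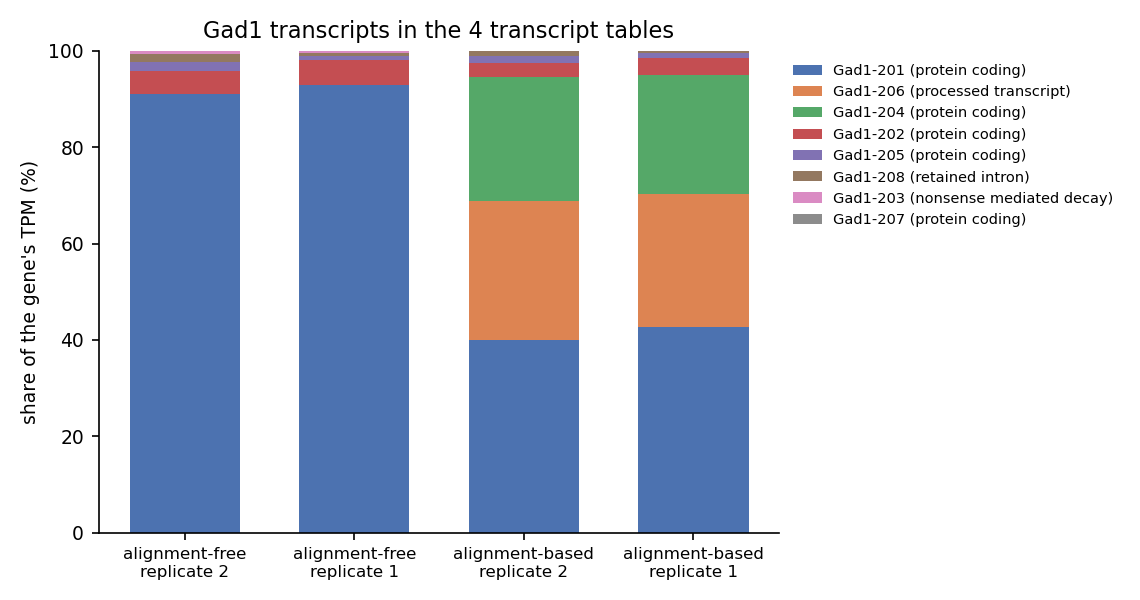
Share of the TPM of Gad1 (%) held by each of its 8 annotated transcripts, stacked from 0 to 100, in the alignment-free and alignment-based tables of replicates 2 and 1. Gad1-201 holds over 90% in the alignment-free tables and about 40% in the alignment-based ones, where Gad1-206 and Gad1-204 take most of the rest.

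The TPM of a gene is its reads divided by the mean effective length of the forms assigned, so it depends on how reads are divided between forms. That length was 2308 bases in replicate 2 and 2330 bases in replicate 1 for Gad1 in the gene tables, where the whole length of Gad1-201 is 3355 bases. Alignment-free over gene-table TPM was 1.11 for Gad1, and 2.18% of detected coding genes had a lower value. For Gabbr1 it was 1.43, with 14.8% of genes lower. The other 7 genes lay between 1.53 and 1.64, near the coding median of 1.62. With Gad1-201 alone against Gad2-201, the ratio of the synthesis enzymes was 2.90 ± 0.0573 in the alignment-free tables and 1.75 ± 0.0295 in the alignment-based ones. Adding Gad1-206 brought the alignment-based value to 2.95 ± 0.0472. Gad1 was above Gad2 in each of these comparisons, and how far above depended on which forms were included.

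The libraries were then set against each other, as the log2 ratio of TMM-scaled counts in replicate 2 over replicate 1. Of the 9 genes, 0 passed 2-fold, where 5.46% of the 18246 genes tested did, and 0 passed 1.5-fold, where 14.3% did. In replicate 2, 7 of the 9 were lower and 2 higher, where 50.0% of all genes were lower. The values ran from -0.34 for Gad2 to 0.24 for Kctd16 (0.15 to 0.33). Their median was -0.04, against 0.00 for all genes and -0.03 for nuclear protein-coding genes, to which all 9 belong. The genes of synthesis, vesicle loading and breakdown were all on the lower side in replicate 2: Gad2 at -0.34 (95% counting interval -0.40 to -0.28), Gad1 at -0.30 (-0.34 to -0.25), Slc32a1 at -0.24 (-0.33 to -0.15) and Abat at -0.22 (-0.27 to -0.16). Between 26.2% and 41.1% of all genes differed more than these did, counting both directions and genes with few counts. Among nuclear protein-coding genes the quartiles were -0.16 and 0.12, so Gad2, Gad1, Slc32a1 and Abat each lay below the lower quartile. Nearer to 0 were Gabbr2 at 0.04, Gabbr1 at -0.03, and Slc6a11 and Kctd12 at -0.04, whereas the auxiliary subunit gene Kctd16, at 0.24, was as far from 0 as Slc32a1 and on the other side. Scaling by spike-ins moved the median of all genes to 0.16 and Gabbr2, Gabbr1, Slc6a11 and Kctd12 to between 0.12 and 0.20. The sign of Slc6a11, Gabbr1 and Kctd12 thus turned with a shift that all genes shared; by deposited TPM Slc6a11 and Gabbr1 were also higher, at 0.01 and 0.03. Gabbr2 was lowest, at -0.03, with alignment-free counts. Gad1, Gad2, Slc32a1, Abat and Kctd16 kept their sign in all 7 alternatives.

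**Figure D4:**
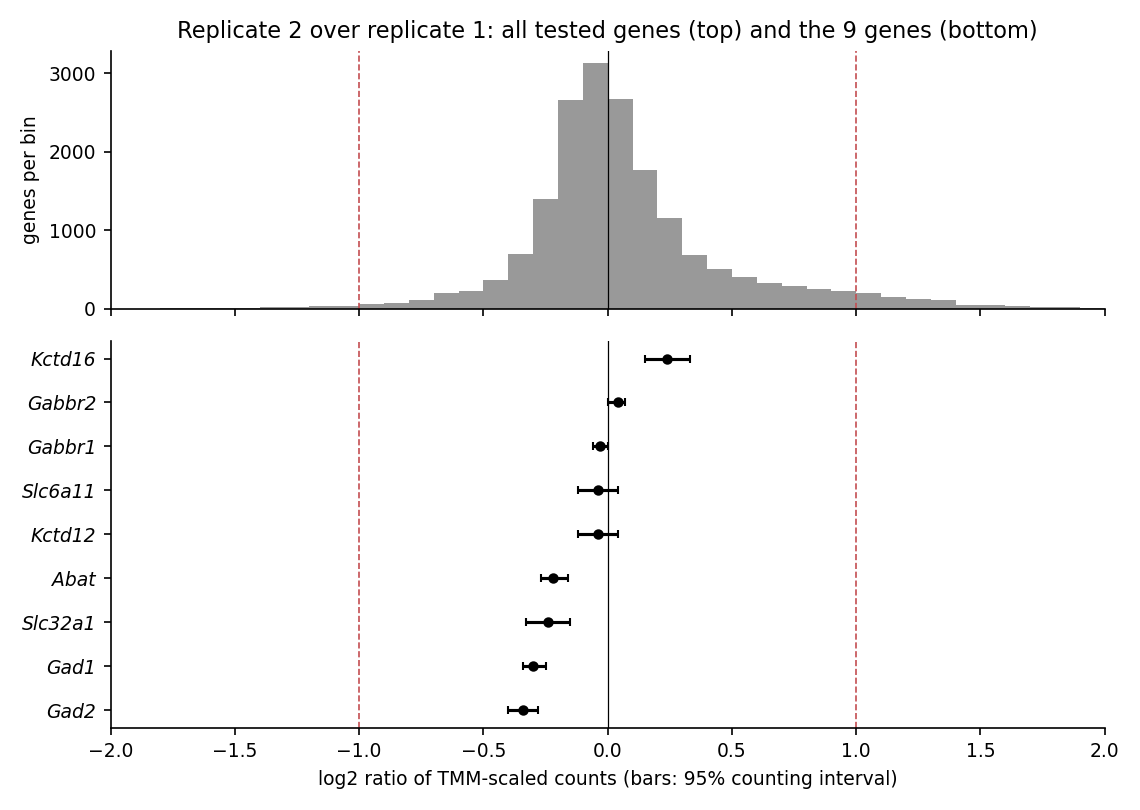
Top, number of tested genes per bin of the log2 ratio of replicate 2 to replicate 1; bottom, the same ratio for the 9 genes with its 95% counting interval. Dashed red lines mark 2-fold in either direction, and all 9 genes lie well inside them, from -0.34 (Gad2) to 0.24 (Kctd16).

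Marker lists differed in how they compared between the libraries. Of all tested genes, 50.0% were lower in replicate 2. Of 17 interneuron markers, 14 were lower in replicate 2 and 3 higher, with a median log2 ratio of -0.29 and a summed level of 856 TPM in replicate 2, against 998 in replicate 1. The list was led by Cck (285 and 356 TPM in replicates 2 and 1) and Sst (169 and 179 TPM), and Dlx2 was the lowest (2.13 and 2.88 TPM). The sum follows its most abundant genes, and Cck differed most in TPM between the libraries. How far each marker is limited to interneurons was not measured. All 8 excitatory markers were detected, and 5 were lower in replicate 2 and 3 higher, with a median of -0.03. Their sum was 1986 TPM in replicate 2, against 1910.4 in replicate 1. Most of that sum was Camk2a (1188 and 1109 TPM in replicates 2 and 1), and Slc17a7 was lower in replicate 2 (547 and 558 TPM). Of 8 astrocyte markers, 5 were lower in replicate 2 and 3 higher, with a median of -0.10. They ran from Slc1a2 (689 and 655 TPM) and Aldoc (314 and 374 TPM) to Aldh1l1 (27.3 and 23.3 TPM). Their sum was 1346 TPM in replicate 2, against 1405 in replicate 1. Markers of oligodendrocytes (5 of 5 lower, median -0.34, sums of 482 and 572 TPM in replicates 2 and 1), microglia (5 of 5, -0.26, 101 and 112 TPM) and endothelium (4 of 4, -0.22, 50.4 and 58.8 TPM) were also lower in replicate 2. Of tissue beside the cortex, 4 of 5 leptomeningeal markers were detected, summing to 20.3 and 20.2 TPM, and 2 of 4 choroid plexus markers, summing to 4.51 and 8.35 TPM. Markers of striatal projection neurons were lower in replicate 2 for 5 of 6 genes, with a median of -0.18 and sums of 158 and 175 TPM in replicates 2 and 1. The part of these cell types in the lower level of the synthesis genes was not tested.

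Kctd16, with the highest ratio of the 9, shares its locus with an unclassified gene, AC164106.1 (chr18:40346169-40351751, same strand), inside its span. That gene had 343 counts in replicate 2 and 227 counts in replicate 1, and so was higher in the same library. Other genes that overlap members had few reads: Gad1os, antisense to Gad1, had 0 counts in replicate 2 and 1 count in replicate 1, and Gm26778 at Kctd12 had 10 and 11 counts.

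The wider pathway was described from lists that do not hold the 9 genes. The lists were chosen with earlier results of these data known, so their counts only describe them. For comparison, 58.3% of nuclear protein-coding genes were detected, and 50.0% of all tested genes were lower in replicate 2. Of 18 further genes of GABA metabolism and transport, 17 were detected, with a median level of 44.8 TPM. Among its most abundant genes were Glul (769 ± 2.61 TPM), whose enzyme makes glutamine in astrocytes, and the aspartate aminotransferase gene Got1 (165 ± 12.7 TPM). Slc6a12, the betaine and GABA transporter gene, was below the threshold, with 0.410 TPM in replicate 2, against 0.510 in replicate 1. Between the libraries 15 of the 18 were lower in replicate 2 and 3 higher, with 0 past 2-fold and a median of -0.14.

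Of 8 receptor partner genes, 7 were detected, at a median of 63.3 TPM. Between the libraries 7 of the 8 were lower in replicate 2, 1 was higher and 0 were past 2-fold. App (590.4 ± 8.22 TPM) and Pianp (80.8 ± 3.29 TPM) encode membrane proteins that bind the sushi domains of the 1a form, and Nsf (424 ± 21.6 TPM) encodes a trafficking ATPase that binds the receptor. The KCTD family was uneven. Kctd8 had 3.15 TPM in replicate 2, against 3.54 in replicate 1, and Kctd12b had 0.840 TPM and 1.01 TPM, the lowest of the list. Both were below Kctd12 and Kctd16 in each library.

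GABA-B receptors act through inhibitory G proteins, inwardly rectifying potassium channels, calcium channels and adenylyl cyclases, and 19 of 20 such effector genes were detected, at a median of 65.1 TPM. The G protein subunit genes Gnb1 (357 ± 13.2 TPM), Gnao1 (286 ± 6.89 TPM) and Gnb2 (253 ± 8.85 TPM) were highest. Potassium channel subunit genes Kcnj9 (59.3 ± 3.85 TPM), Kcnj3 (48.3 ± 0.488 TPM) and Kcnj6 (40.0 ± 6.40 TPM) had similar levels, while Kcnj5 was lowest at 0.310 TPM in replicate 2, against 0.100 in replicate 1. Kcnj5, with 19 and 10 counts, was the 1 effector gene past 2-fold, and of all 20 effector genes 12 were lower in replicate 2 and 8 higher (median log2 ratio -0.02).

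**Figure D5:**
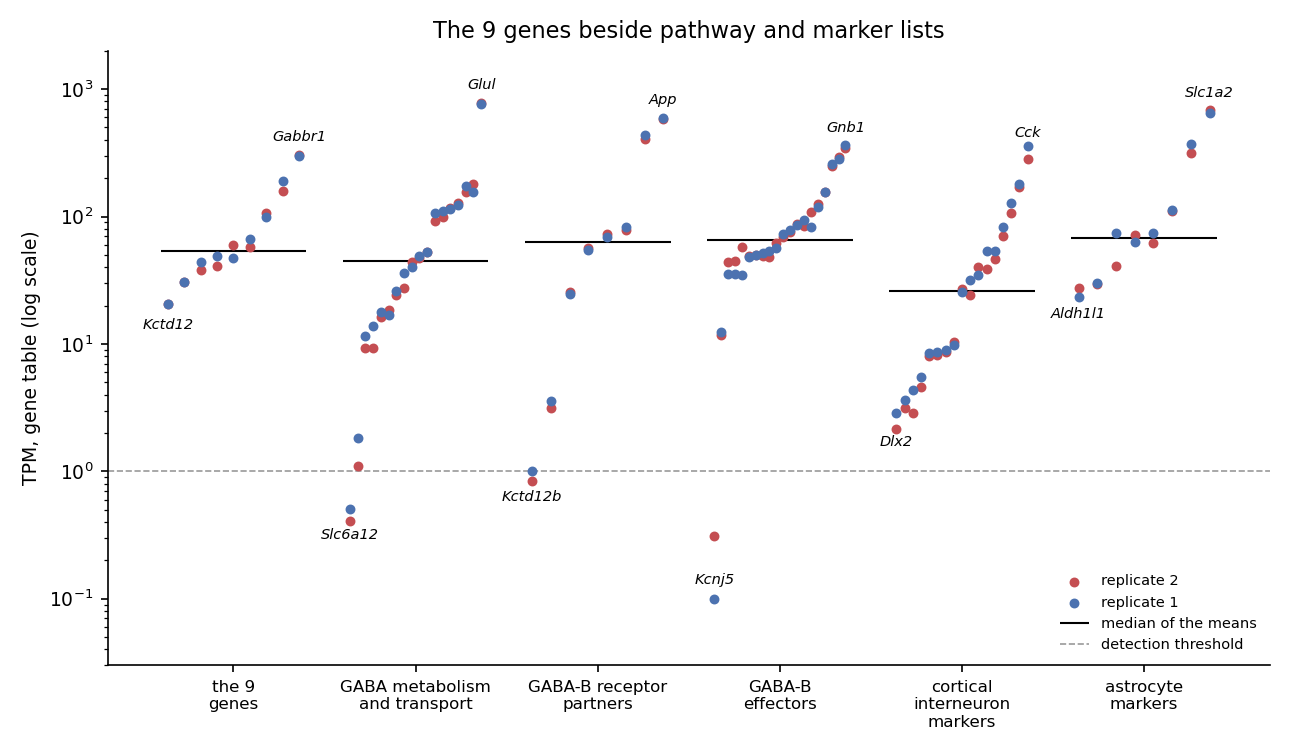
TPM (log axis) of the 9 genes, of the pathway lists and of interneuron and astrocyte markers, each gene as a pair of points for replicate 2 (red) and replicate 1 (blue), ordered by mean within a list; black lines are list medians and the dashed line is the 1 TPM threshold. The 9 genes lie within the range of their pathway lists, and Slc6a12, Kctd12b and Kcnj5 are the pathway genes below the threshold.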

How the data were processed

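There were 3 deposited tables per library, 1 of genes and 2 of transcripts, all on mm10 with GENCODE M21 per the deposited text. By that text, the gene table and the transcript table called alignment-based here derive from a transcriptome alignment, and the alignment-free one from reads and an index. The programs' names were not given in the sources used here. Alignment-based values are expected counts without normalization, TPM, posterior mean TPM and the percent each isoform takes of its gene, per the file headers. Percent shares were computed anew from the deposited TPM in both kinds of table. Alignment-free values, which were summed to genes, are, per the file headers, estimated counts with TPM.

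The 9 genes, the pathway and marker lists and the naming rule were chosen with earlier results of these data known. The rule names all 9 genes, the 3 highest and the lowest gene of each pathway list, the 2 highest and the lowest of the main marker lists, leading transcripts, and Gad1 and Gabbr1 forms with a share of 5% or more. Further genes (Cbln1, Kctd8, Kcnj3, Kcnj6, Kcnj9, overlapping genes) were named after their values were seen, as were the ratios described as added. Some genes that the rule names are left unreported.

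Levels are mean and SD of TPM (n = 2). Expected counts were rounded, genes averaging at least 10 counts were kept (18246), and log2 ratios were taken with edgeR 4.0.16 (TMM, prior count 2). DESeq2 1.42.0 gave alternative size factors. The steps were tested on simulated data. Counting intervals (95%) cover counting error only. Spike-ins held 0.406% of counts in replicate 2 and 0.452% in replicate 1 and were left out of library sizes. Reads were placed on a C57BL/6J reference; the effect of CAST/EiJ variants was not analysed here.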

Additional observations from a re-analysis of the deposited data

How the results depend on the processing

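No paired analysis was possible because there is 1 group. The median level of the 9 genes, taken as the mean of both libraries' medians, was 53.7 TPM; it was 81.5 TPM in the alignment-free tables and 122 TPM when TPM was rescaled to nuclear protein-coding genes. With alignment-free values Gad1 over Gad2 was 2.77, Slc32a1 over Gad1 0.322, Gabbr1 over Gabbr2 2.60 and Abat over Gad1 0.507. The share of Gad1-201 was 91.9% in the alignment-free tables and 58.2% over protein-coding transcripts alone, where that of Gabbr1-203 was 61.4%. From alignments, and chosen after the data were seen, complete forms alone gave 1.75 for Gad1-201 over Gad2-201, 2.95 with Gad1-206 added, and 1.91 for Gabbr1 over Gabbr2. The cause was not tested. Of 65 recomputed main values, 53 stayed within the spread of the libraries, or within 1.5 times for counts, including the count of 9 genes detected and of 0 past 2-fold. The 65 include levels, ratios and shares with 1 library left out. With 2 libraries these stay within the spread by construction, so they say nothing about stability. Alignment-free counts put 8 of the 9 genes lower in replicate 2 and 1 higher, against 7 and 2, where 50.2% of all genes were lower. Spike-in scaling moved every ratio up by about 0.16 and put 4 of the 9 lower and 5 higher, where 23.5% of all genes were lower. With 2 libraries that share a donor entry, the spread is poorly known.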
